A study of Homo sapiens with 6 samples.

Results

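The genes described here were 9 chemokine genes of the 23002 genes with a value: CXCL1, CXCL2, CXCL3, CXCL8, CXCL10, CXCL11, CCL2, CCL5 and CCL20. They were selected by name as chemokines whose mRNA responded in opposite directions when TRAF2 was knocked down, so the difference between the knockdown and control samples is what chose them. That difference is therefore given for each gene as a description, with its spread and without a p-value. Bulk mRNA was sequenced in U251 cells, an established human glioblastoma line, in 3 control samples (sh-NC) and 3 knockdown samples (sh-TRAF2). The control line carried a lentivirus with a non-targeting short hairpin RNA, and the knockdown line a lentivirus with a hairpin against TRAF2. Both were stable lines, the vector encodes EGFP and puromycin resistance, and the TRAF2 hairpin used for sequencing is not stated. No label gives a cytokine treatment for these samples. The 3 samples of a group are called biological replicates. Whether they share 1 stable line is not stated, so the spread between them may not cover differences between independently made lines.

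Chemokines are small secreted proteins that bind G protein-coupled receptors and direct the migration of leukocytes. Those with an ELR motif before their CXC cysteines (CXCL1, CXCL2, CXCL3 and CXCL8) act on CXCR2 and attract neutrophils, whereas CXCL10 and CXCL11 are induced by interferon and attract activated T cells through CXCR3. CCL2 attracts monocytes through CCR2, CCL5 acts on receptors that include CCR1 and CCR3, and CCL20 acts on CCR6. Many chemokine genes are switched on by NF-kappaB, and the mRNAs of several are short-lived because their 3′ untranslated regions (3′UTRs) carry AU-rich elements. TRAF2 is an adaptor and ubiquitin ligase of the TNF receptor family, and it passes the signal from the receptor to NF-kappaB and JNK. Together with TRAF3 and the cIAP proteins, TRAF2 keeps the protein level of the NF-kappaB-inducing kinase (gene MAP3K14) low in resting cells.

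The library totals were similar, with 33999558 to 36823562 reads on genes recovered per sample. Levels are in FPKM, a count of fragments scaled for transcript length and sequencing depth, which can be compared between genes. TRAF2 was at 16.3 ± 1.84 FPKM (SD, n = 3) in sh-NC and at 3.27 ± 0.054 FPKM (SD, n = 3) in sh-TRAF2, with no overlap (log2 difference -2.27, standard error 0.079, limma adjusted p = 1.16e-06). Of the markers of the line, VIM, SOX2, SOX9, CD44 and TNC were present in every sample. EGFR went from between 30.9 and 32.4 FPKM in sh-NC to between 13.8 and 15.0 FPKM in sh-TRAF2 and NES from between 4.82 and 5.88 FPKM to between 11.4 and 11.8 FPKM. The astroglial marker GFAP was between 0.334 and 1.62 FPKM and S100B between 0 and 0.0228 FPKM. The leukocyte gene PTPRC was at no more than 0.00447 FPKM and CD4 at no more than 0.00787 FPKM, while CD68, on the macrophage list, was at 14.9 to 17.6 FPKM. The endothelial gene PECAM1 was at no more than 0.00781 FPKM, while KDR was at 3.24 to 3.34 FPKM in sh-NC and 3.61 to 4.25 FPKM in sh-TRAF2. The summed level of the neuronal list was 25.4 to 28.6 FPKM in sh-NC and 15.7 to 16.8 FPKM in sh-TRAF2, most of it SYT1, while its defining marker RBFOX3 was at or near 0. The part of these marker differences in the differences below was not tested.

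Of the 9 chemokine genes, 8 had a mean of at least 0.5 FPKM over the 6 samples and entered the fit across 11870 genes, and CXCL1 did not. By the call rule of an adjusted p under 0.05, 6 were higher in sh-TRAF2 (CXCL2, CXCL3, CXCL8, CXCL10, CXCL11 and CCL20), 1 was lower (CCL2) and CCL5 did not pass. Without the filter on low values 5 were called higher, since CXCL8 no longer passed. With the filter, the same rule called 23.7% of all genes tested higher and 20.9% lower, together 44.6%. With a log2 difference beyond 1 in addition, which is the threshold of the study, CXCL10 and CCL20 were called higher and CCL2 lower, against 0.986% and 0.733% of all genes. The same 6 genes lay above sh-NC in every sh-TRAF2 sample and CCL2 lay below, against 29.0% and 26.5% of all genes, together 55.5%. The members were selected on this contrast, so nothing is read from these counts. The median log2 difference was 0.77 over the 8 genes and 0.02 over all genes tested.

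**Figure D1:**
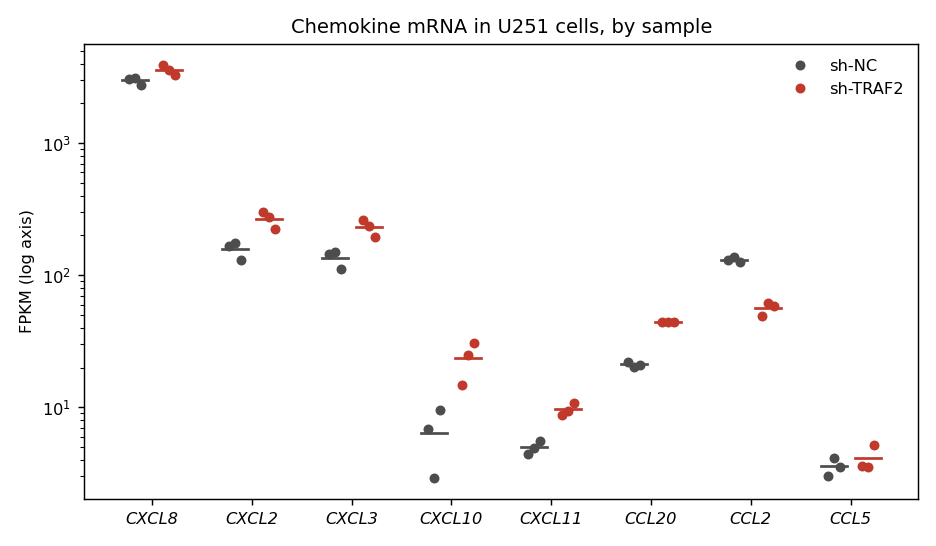
FPKM of 8 chemokine mRNAs (log axis) in the 3 sh-NC samples (grey) and the 3 sh-TRAF2 samples (red); each point is a sample, placed from replicate 1 on the left to replicate 3 on the right, and each bar is the group mean. CCL2 is the gene with its knockdown samples below its control samples, and CCL5 is the gene whose groups overlap. CXCL1, listed at 0 in 5 samples, is not drawn.

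The genes spanned a wide range of levels. In sh-NC the order of the mean levels was CXCL8 (2981 FPKM), CXCL2 (158 FPKM), CXCL3 (135 FPKM), CCL2 (131 FPKM), CCL20 (21.1 FPKM), CXCL10 (6.43 FPKM), CXCL11 (4.96 FPKM), CCL5 (3.57 FPKM) and CXCL1, listed at 0. The ranges of CXCL2, CXCL3 and CCL2 overlapped in sh-NC, and so did those of CXCL10 and CXCL11 and those of CXCL10 and CCL5. In sh-TRAF2 the order was the same, and the ranges of CXCL2 and CXCL3 overlapped. There the mean level of CCL2 (56.6 FPKM) was nearer to that of CCL20 (44.1 FPKM) than to that of CXCL3 (231 FPKM). Its lowest sample still lay above the highest CCL20 sample. CXCL8 alone made up 86.3 to 87.2% of the summed FPKM of the 9 genes in sh-NC and 84.6 to 85.3% in sh-TRAF2, and the sum was 3441 ± 236 FPKM (SD, n = 3) and 4244 ± 376 FPKM (SD, n = 3).

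The 6 CXC genes are on chromosome 4 in the GENCODE release 29 annotation (GRCh38), which is not known to be the annotation behind the FPKM values. CXCL8 (chr4:73740506-73743716, plus strand), CXCL1 (chr4:73869393-73871242, plus strand), CXCL3 (chr4:74036589-74038807, minus strand) and CXCL2 (chr4:74097035-74099293, minus strand) lie within 359 kb. CXCL10 (chr4:76021117-76023497, minus strand) and CXCL11 (chr4:76033682-76041415, minus strand) lie 10.2 kb apart and 1922 kb beyond CXCL2. CCL2 (chr17:34255218-34257203, plus strand) and CCL5 (chr17:35871491-35880793, minus strand) are on chromosome 17, and CCL20 (chr2:227805739-227817564, plus strand) is on chromosome 2. Proximity did not go with level: CXCL1, between CXCL8 and CXCL3, was listed at 0 in 5 of 6 samples, CXCL5, between CXCL1 and CXCL3, ran from 0 to 0.0239 FPKM, and CXCL9, the neighbour of CXCL10, ran from 0 to 0.0292 FPKM.

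Promoter sequences of the chromosome 4 genes are shown because CXCL1 differs widely in listed level from CXCL2 and CXCL3, while the 3 share nearly the same one. They are taken from RefSeq (GRCh38.p14) and end at the base before the start site, 5′ to 3′ on the strand of the gene. A promoter was listed for 7 of the 9 genes. Capitals mark matches to the motifs searched, which were the kappaB core GGANNTTCC, the interferon-stimulated response element core (GAAA, any 2 bases, GAAA), the AP-1 site TGANTCA and the C/EBP core TTGCNNCAA, on both strands. The first stretches are 120 bases of CXCL1 (chr4:73869273-73869392, plus strand), CXCL2 (chr4:74099196-74099315, minus strand) and CXCL3 (chr4:74038690-74038809, minus strand).
CXCL1: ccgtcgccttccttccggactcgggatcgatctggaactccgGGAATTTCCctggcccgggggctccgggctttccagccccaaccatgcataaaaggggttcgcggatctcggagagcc
CXCL2: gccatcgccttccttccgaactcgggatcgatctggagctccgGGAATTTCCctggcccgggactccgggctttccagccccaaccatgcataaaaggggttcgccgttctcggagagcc
CXCL3: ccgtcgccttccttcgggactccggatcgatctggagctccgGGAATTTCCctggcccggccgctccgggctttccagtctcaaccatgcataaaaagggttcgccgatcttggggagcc
The CXCL1 and CXCL2 stretches were identical at 94.2% of 120 bases, CXCL1 and CXCL3 at 90.8%, and CXCL2 and CXCL3 at 89.2%. All 3 hold the same kappaB core letters, which begin 78, 77 and 78 bases before the start site. The GENCODE models of CXCL2, CXCL3, CXCL8, CXCL11 and CCL20 reach further upstream than the RefSeq start sites used here. The gap is 5.35 kb for CXCL11 and 8.10 kb for CCL20.

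The stretches of CXCL8 (150 bases, chr4:73740419-73740568, plus strand), CXCL10 (250 bases, chr4:76023498-76023747, minus strand) and CXCL11 (120 bases, chr4:76036071-76036190, minus strand) hold other combinations of motifs.
CXCL8: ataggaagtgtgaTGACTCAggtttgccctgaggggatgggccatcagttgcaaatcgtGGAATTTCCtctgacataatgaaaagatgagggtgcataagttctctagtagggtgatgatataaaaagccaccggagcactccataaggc
CXCL10: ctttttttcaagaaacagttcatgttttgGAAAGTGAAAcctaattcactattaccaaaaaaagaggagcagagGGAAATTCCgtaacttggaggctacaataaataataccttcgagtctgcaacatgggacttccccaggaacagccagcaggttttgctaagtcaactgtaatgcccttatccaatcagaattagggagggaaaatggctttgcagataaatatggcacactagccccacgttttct
CXCL11: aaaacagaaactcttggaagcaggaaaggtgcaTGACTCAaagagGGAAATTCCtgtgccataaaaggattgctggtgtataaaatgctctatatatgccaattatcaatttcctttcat
The kappaB core was found in 6 of the 7 listed promoters (CXCL1, CXCL2, CXCL3, CXCL8, CXCL10 and CXCL11, not CCL20), against 4.59% of all 27305 promoters. CXCL10 had the interferon response element core, present in 3.65% of all promoters, 221 to 212 bases before its start. CXCL8 and CXCL11 each had the AP-1 site, present in 7.76% of all promoters, and none of the 7 had the C/EBP core, present in 2.02%. A match is a description of letters and does not show that a factor binds there. Sites with other letters were not searched, so the lack of a match does not show that a site is absent.

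Among the ELR chemokines, CXCL2 and CXCL3 had nearly parallel profiles over the 6 samples. CXCL2 was at 167, 176 and 130 FPKM in sh-NC replicates 1, 2 and 3, and at 301, 275 and 225 FPKM in sh-TRAF2 replicates 1, 2 and 3. CXCL3 was at 144, 151 and 111 FPKM in sh-NC and at 261, 237 and 194 FPKM in sh-TRAF2. In both genes every knockdown sample lay above every control sample, and replicate 3 was the lowest of its group on both sides. The mean level of CXCL2 was 1.70-fold higher in sh-TRAF2 (log2 difference 0.76, standard error 0.13), and that of CXCL3 was 1.70-fold higher (log2 difference 0.77, standard error 0.13). The ratio of CXCL2 to CXCL3 stayed between 1.15 and 1.17 in all 6 samples. Their coding sequences are identical at 94.4% of 324 bases, and 9.24% of the 50-base windows of the CXCL2 transcript, but none of its 100-base windows, occur in CXCL1 or CXCL3. Reads may thus have been shared or set aside between these paralogues, and how the counting treated them is not stated.

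CXCL1, the third of these paralogues, was listed at 0 in all sh-NC samples and in sh-TRAF2 replicates 2 and 3, and at 0.0245 FPKM in sh-TRAF2 replicate 1. This value was taken as 1 read, and a count of 0 allows up to 0.0688 to 0.0745 FPKM per sample (3 reads, counting error only). No difference in CXCL1 was detectable at this depth. Genes used in every cell were not at 0 in any library (ACTB at least 958 FPKM, HPRT1 at least 47.4 FPKM). Its coding sequence is identical to those of CXCL3 and CXCL2 at 90.7 to 93.5% of bases. Of the 50-base windows of the CXCL1 transcript, 5.73% occur in CXCL2 or CXCL3, and none of its 100-base windows do. The part of reads shared between paralogues in the value of CXCL1 was not tested, so that value stays uncertain.

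CXCL8, the interleukin-8 gene, was among the most abundant mRNAs of these cells. It was at 3057, 3120 and 2765 FPKM in sh-NC replicates 1, 2 and 3, ranking 6, 4 and 7 among all genes. In sh-TRAF2 replicates 1, 2 and 3 it was at 3928, 3606 and 3291 FPKM, ranking 1, 1 and 2. Every knockdown sample lay above every control sample, but the lowest of them was 1.05-fold above the highest control sample. The mean was 1.21-fold higher (log2 difference 0.27, standard error 0.067). Between 211503 and 281434 reads stood behind each value, so counting error was 0.212% in sh-NC and 0.197% in sh-TRAF2, against a coefficient of variation between samples of 6.34% and 8.83%.

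**Figure D2:**
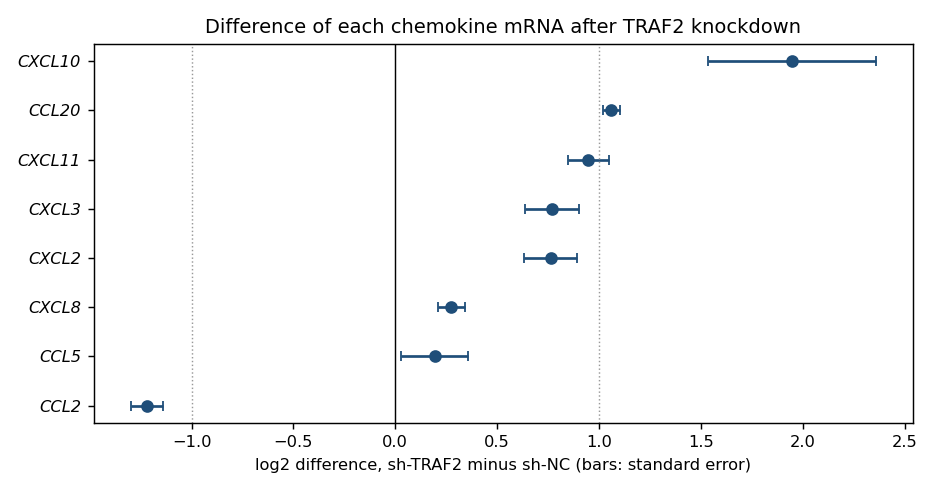
Difference of the mean log2(FPKM + 0.1), sh-TRAF2 minus sh-NC, for each of the 8 chemokine mRNAs with a mean of at least 0.5 FPKM; bars are the standard error from limma, and dotted lines mark differences of 1 and -1. CXCL10 has the highest difference (1.95) with the widest bar, CCL20 (1.06) the narrowest, and CCL2 is at -1.22.

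Of the interferon-type chemokines, CXCL10 differed from CXCL2, CXCL3 and CXCL8 in the size of its difference and in its spread. CXCL10 was at 6.79, 2.90 and 9.59 FPKM in sh-NC replicates 1, 2 and 3, and at 14.8, 24.8 and 30.8 FPKM in sh-TRAF2 replicates 1, 2 and 3. The groups did not overlap, yet the ratio of a knockdown to a control sample ran from 1.54 to 10.6 depending on the pair. The mean was 3.65-fold higher in sh-TRAF2 (log2 difference 1.95, standard error 0.41). The coefficient of variation was 52.3% in sh-NC and 34.6% in sh-TRAF2, while counting error alone gives 6.03% and 3.23%. The log2 difference was 1.46 when sh-NC replicate 2 was left out and 2.31 when sh-NC replicate 3 was.

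CXCL11, the neighbour of CXCL10, was steadier. It was at 4.40, 4.91 and 5.57 FPKM in sh-NC replicates 1, 2 and 3 and at 8.78, 9.40 and 10.8 FPKM in sh-TRAF2 replicates 1, 2 and 3. The groups were separate, with a mean 1.94-fold higher in sh-TRAF2 (log2 difference 0.95, standard error 0.10), just under the log2 threshold of 1. Its coefficients of variation of 11.7% and 10.5% were well below those of CXCL10. Both genes overlap ART3 on the other strand, and the use of strand in counting is not stated. ART3 itself was between 0 and 0.0253 FPKM, with at most 4 reads in a sample.

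CCL2 was the member that moved the other way. It was at 130, 137 and 127 FPKM in sh-NC replicates 1, 2 and 3, and at 49.1, 62.1 and 58.7 FPKM in sh-TRAF2 replicates 1, 2 and 3. Every knockdown sample lay below every control sample, and the highest ratio of a knockdown to a control sample was 0.49. The mean fell by 56.9%, from 131 ± 5.13 to 56.6 ± 6.75 FPKM (SD, n = 3 each; log2 difference -1.22, standard error 0.080). Between 1266 and 3629 reads stood behind each value. In rank among all genes CCL2 went from between 408 and 442 in sh-NC to between 1070 and 1356 in sh-TRAF2, while CXCL2, near it in sh-NC at 301 to 429, was at 158 to 219.

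CCL20 had the tightest values of the set in sh-TRAF2, whereas in sh-NC those of CCL2 were tighter (coefficient of variation 3.91% against 4.45%). It was at 22.1, 20.3 and 20.9 FPKM in sh-NC replicates 1, 2 and 3 and at 44.1, 44.0 and 44.2 FPKM in sh-TRAF2 replicates 1, 2 and 3. The groups were far apart, with a mean 2.09-fold higher in sh-TRAF2 (log2 difference 1.06, standard error 0.043). The 3 knockdown samples had a coefficient of variation of 0.227%, under the 2.80% that counting error gives at their 1260 to 1294 reads.

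CCL5 showed no separation. It was at 3.00, 4.15 and 3.54 FPKM in sh-NC replicates 1, 2 and 3 and at 3.60, 3.54 and 5.22 FPKM in sh-TRAF2 replicates 1, 2 and 3. One knockdown sample stood above the others and the remaining values overlapped (log2 difference 0.19, standard error 0.16). With 139 to 238 reads per sample, counting error gives a coefficient of variation of 7.72% in sh-NC and 7.33% in sh-TRAF2, against measured values of 16.1% and 23.1%. CCL5 overlaps an antisense gene in the annotation, so its reads could not be told from those of that gene if strand was not used.

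The order of the replicates within a group was shared by some of the genes. CXCL2, CXCL3 and CXCL8 were lowest in replicate 3 of both groups and highest in sh-NC replicate 2 and sh-TRAF2 replicate 1. CXCL10 had the reverse order, lowest in sh-NC replicate 2 and in sh-TRAF2 replicate 1 and highest in replicate 3 of both groups. CXCL11 was highest in the same samples as CXCL10 but lowest in replicate 1 of both groups. With 3 samples in a group these orders are descriptions and carry no test.

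**Figure D3:**
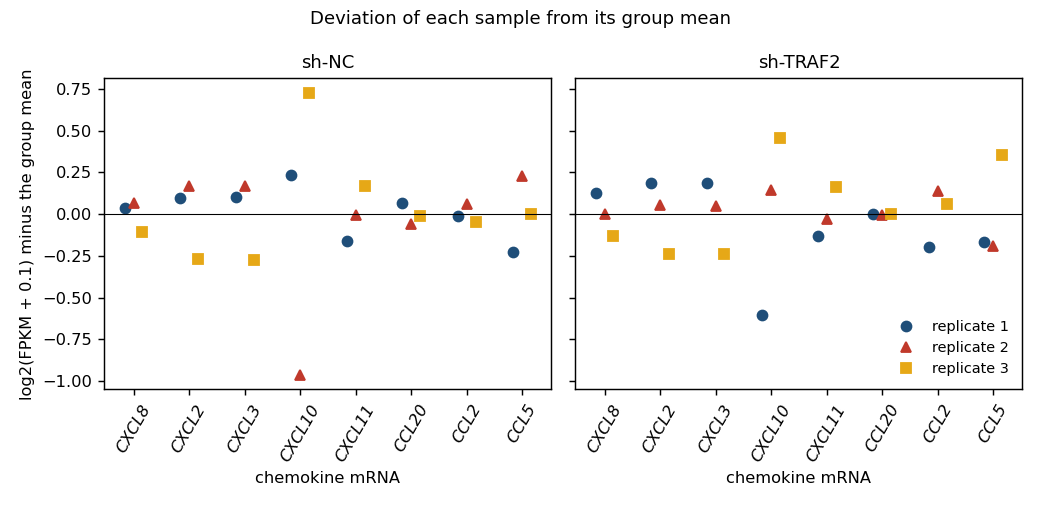
Deviation of log2(FPKM + 0.1) from the group mean for 8 chemokine mRNAs in the sh-NC samples (left) and the sh-TRAF2 samples (right), with symbols for replicates 1, 2 and 3. CXCL10 departs most, at -0.96 in sh-NC replicate 2 and -0.60 in sh-TRAF2 replicate 1, while CXCL8, CXCL2 and CXCL3 deviate the other way in both samples.

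The same samples stood out across the interferon-induced genes. Of 31 tested genes of that list, 28 (90.3%) were lowest in sh-NC replicate 2, as were CXCL10 and CCL20, against 36.3% of all genes tested. In sh-TRAF2 replicate 1 all 31 were at their lowest in the group, as were CXCL10, CXCL11 and also CCL2, against 39.5% of all genes. The summed FPKM of the list was 1018, 846 and 1115 in sh-NC replicates 1, 2 and 3 and 1345, 1623 and 1770 in sh-TRAF2 replicates 1, 2 and 3. Among the NF-kappaB genes, 26 of 33 (78.8%) were lowest in sh-NC replicate 3, as were CXCL2, CXCL3, CXCL8 and CCL2, against 34.4% of all genes, but in sh-TRAF2 14 of 33 (42.4%) were lowest in replicate 3, against 30.2%. Genes of 1 list are not independent of one another, and the part of these sample differences in the group differences was not tested.

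The genes whose profile over the 6 samples was nearest to each member were named by the root mean square difference of centred log2 values. CXCL2 and CXCL3 were nearest to each other, at 0.0068, and outside the set both were nearest to the histone gene H2BC9 and to XDH, xanthine dehydrogenase. CXCL10 was nearest to IFITM1, an interferon-induced membrane protein, at 0.258, which went from 7.49 to 20.9 FPKM in sh-NC to 23.6 to 47.3 FPKM in sh-TRAF2. CCL2 was nearest to GPT2, an alanine aminotransferase, at 0.076, and to APOBEC3C, a cytidine deaminase, at 0.078. For CXCL8 the nearest were KANSL2 and EBNA1BP2, for CXCL11 CAMLG and BEX1, for CCL20 KCTD20 and SND1, and for CCL5 RNF32-DT and MBLAC1.

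Other chemokine ligands were scarce. Of 39 on the list, 15 had a value and 3 were tested: CXCL16 (log2 difference 0.26, standard error 0.34), CX3CL1 (0.45, standard error 0.38) and CCL26 (0.12, standard error 0.14). Of these 0 passed in limma or limma-voom, 0 at an unadjusted p under 0.05 in limma, and their groups overlapped. Of 23 receptor genes 13 had a value, and CCR10, the receptor for CCL27 and CCL28, was the 1 tested (log2 difference 0.34, standard error 0.22, adjusted p = 0.236). Receptors for the ligands described here were at or near 0: CXCR2 was at 0.00969 to 0.0471 FPKM, CCR2 at 0.00804 to 0.0697 FPKM, CCR1 at 0 to 0.0317 FPKM and CCR6 at 0 to 0.017 FPKM. CXCR3 and CCR3 were not analysed here.

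Genes of the NF-kappaB pathway, which regulates many chemokine genes, went both ways. Of 33 tested, 15 rose, 4 fell and 14 did not pass, beside 23.7% of all genes tested that were called higher and 20.9% lower, with a median log2 difference of 0.14 against 0.02 over all genes tested. IL1B, the cytokine interleukin-1 beta, rose most, from 7.80 ± 1.15 to 25.6 ± 1.05 FPKM (log2 difference 1.71, standard error 0.095, adjusted p = 8.18e-06). TNF (log2 difference 0.87), CSF2, which encodes GM-CSF (0.80), IL1A (0.76) and NFKBIZ, an atypical IkappaB protein (0.48), rose as well. Of the subunits, NFKB2 (0.38), REL (0.38), RELB (0.32) and RELA (0.22) rose. The 4 that fell, named after their values were seen as were the subunits, were BIRC3, which encodes cIAP2 (-0.47), the kinase CHUK (-0.42), MAP3K14 (-0.31) and NFKB1 (-0.16).

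Among the interferon genes, the group to which CXCL10 and CXCL11 belong by their regulation, those that passed in the main fit were all higher. Of 31 tested, 24 rose, 12 of them with a log2 difference above 1, and 7 did not pass. Of all genes tested, 23.7% were called higher and 0.986% were higher by more than 1. The median log2 difference of the list was 0.82, against 0.02 over all genes tested. In limma 0 fell, as with limma-voom, also at an unadjusted p under 0.05, while 1 was called lower with quantile normalization. IFITM1 (log2 difference 1.60, standard error 0.37, adjusted p = 0.00893), USP18, a protease that removes ISG15 from proteins (1.37, standard error 0.25, adjusted p = 0.00271), and RSAD2, the antiviral enzyme viperin (1.20, standard error 0.22, adjusted p = 0.00259), rose most. IFIT1, which binds viral RNA (1.16, adjusted p = 0.0227), and MX2, an antiviral GTPase (1.15, adjusted p = 0.0237), also rose. The log2 difference of IFIT1 was 0.74 without sh-NC replicate 2. The calls for IFIT1 and MX2 did not hold without sh-TRAF2 replicate 2 (adjusted p = 0.0639 for IFIT1 and 0.0707 for MX2) or without sh-TRAF2 replicate 3 (0.0737 and 0.0760), and that of MX2 did not hold without sh-NC replicate 2 (0.0587). Both calls were also lost without the filter on low values (0.0836 and 0.0860) and with eBayes without a trend (0.0558 and 0.0560). In the list, 19 genes passed as higher without the filter, without the trend, or without sh-TRAF2 replicate 2 or 3.

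**Figure D4:**
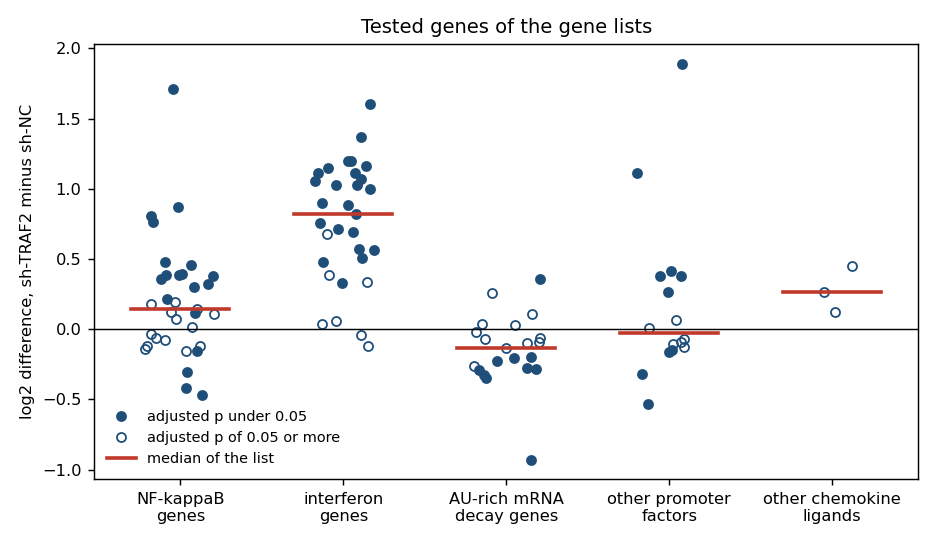
Log2 difference (sh-TRAF2 minus sh-NC) of every tested gene of 5 gene lists; filled points have a limma adjusted p under 0.05, open points do not, and red bars are list medians. The interferon list has a median of 0.82 with 24 of 31 genes passing as higher, while the AU-rich mRNA decay list has a median of -0.14 with 9 of 21 passing as lower.

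The 3′UTRs of the 9 genes separate the ELR chemokines from most of the others. The pentamer ATTTA, the core of AU-rich elements, occurred 5, 10, 7 and 9 times in the GENCODE 3′UTRs of CXCL1, CXCL2, CXCL3 and CXCL8, and 3 times in that of CCL20. It occurred once in CXCL10, CXCL11 and CCL2 and was not found in CCL5. Per kilobase these were 7.08, 13.9, 10.4 and 7.19 for the ELR genes and 6.24 for CCL20, against a median of 1.87 and a 90th percentile of 4.63 over 9979 tested genes. CXCL10 had 1.23, CXCL11 0.90 and CCL2 2.11 per kilobase. The longer form ATTTATTTA was in CXCL1, CXCL2 and CXCL8 and in 7.94% of 10604 tested genes, and TATTTAT was in the 4 ELR genes and CCL20 and in 36.9%. Stretches of 30 bases with the densest ATTTA matches, in capitals and written with T for U, are shown to set the ELR genes beside CCL2.
CXCL1: cttaggagaagtcttctATTTATTTATTTA
CXCL2: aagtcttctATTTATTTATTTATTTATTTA
CXCL3: ttacgagggttctacttATTTAtgtATTTA
CXCL8: taacctATTTAttATTTAtgtATTTATTTA
CCL2: taaacctagagtcagagagtgcactATTTA
Beside these counts, the log2 difference was 0.76 for CXCL2 (10 matches), 0.27 for CXCL8 (9), 0.77 for CXCL3 (7) and 1.06 for CCL20 (3). With 1 match each, CXCL10 differed by 1.95, CXCL11 by 0.95 and CCL2 by -1.22. CCL5, with no match, differed by 0.19. The part of these elements in the differences was not tested.

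Genes that act on AU-rich mRNAs went both ways. Of 21 tested, 1 rose, 9 fell and 11 did not pass, beside 23.7% called higher, 20.9% lower and 44.6% in either direction over all genes tested, with a median log2 difference of -0.14. ZFP36L1, a zinc finger protein that binds AU-rich elements and promotes decay, fell by 47.5%, from 93.3 ± 4.61 to 48.9 ± 2.58 FPKM (log2 difference -0.93, standard error 0.051, adjusted p = 8.18e-06). KHSRP, which also promotes decay of such mRNAs, was the 1 that rose (log2 difference 0.35, adjusted p = 6.86e-05). TIA1, a translational silencer (-0.35), RC3H2, the Roquin-2 protein (-0.32), and the exonuclease XRN1 (-0.29, adjusted p = 0.0201) fell. The call for XRN1 did not hold without sh-NC replicate 1 (adjusted p = 0.0581), sh-NC replicate 3 (0.0671), sh-TRAF2 replicate 1 (0.0646) or sh-TRAF2 replicate 2 (0.0582). It was also lost without the filter on low values (limma adjusted p = 0.0537).

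Of 16 other factors that act at chemokine promoters, 6 rose, 4 fell and 6 did not pass, beside 23.7% called higher and 20.9% lower over all genes tested, with a median log2 difference of -0.03. The AP-1 genes FOS (log2 difference 1.89, standard error 0.19, adjusted p = 0.000138), JUN (0.41, adjusted p = 6.04e-05) and FOSL2 (0.38, adjusted p = 0.000431) rose, and JUND (-0.53, adjusted p = 0.000516) fell. EGR1, an early growth response factor, rose by 1.11 (adjusted p = 0.000685). The log2 difference of FOS was 0.87 with a pseudocount of 1. FOS reached the filter of 0.5 FPKM only through its sh-TRAF2 samples, and it was not tested with the filter at 1 FPKM. FOS stayed low in both groups, at 0.293 ± 0.0474 FPKM in sh-NC and 1.36 ± 0.264 FPKM in sh-TRAF2 (SD, n = 3 each), whereas JUN went from 170 ± 5.40 to 226 ± 4.81 FPKM.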

How the data were processed

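The deposited values are FPKM per gene, computed by the authors, 1 column for each of the 6 samples. The submitters' processing notes name HISAT2, HTSeq, R 3.2.0 and DESeq2, and the genome build, annotation and use of strand are not given in the sources used here. Samples were grouped by their labels. From these values log2(FPKM + 0.1) was compared between sh-TRAF2 and sh-NC with limma 3.58.1 in R 4.3.3 (lmFit, eBayes with trend, two-sided, Benjamini-Hochberg adjustment) over the 11870 of 23002 genes whose mean FPKM reached 0.5. Genes passed at an adjusted p under 0.05. The pseudocount understates the differences of low genes. Since the 3 samples of a group may come from 1 stable line, p-values measure the spread between these samples, which may be technical. In bulk RNA, fewer cells expressing a gene and less RNA per cell cannot be told apart.

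The read count behind each value was taken as the smallest set of integers in the ratios of the depth-corrected FPKM (tolerance 0.0001), and for 2643 genes with reads in 1 sample it was set to the lowest. Floors cover counting error only. Both the read recovery and the fit were tested on simulated data before use.

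The chemokines and the gene lists were chosen with earlier results of these data known. Named were TRAF2, the 9 chemokines, up to 5 genes of each list with the largest absolute log2 difference among those that passed without overlap between groups, other listed ligands of the chromosome 4 clusters, and the 2 genes with the nearest profile to each chemokine. A gene picked by the last of these criteria is not reported here. Genes beyond these were named after their values were seen. The lists held 39 other ligands, 23 receptors, 34 NF-kappaB genes, 32 interferon genes, 21 AU-rich mRNA decay genes and 16 other promoter factors. Promoters came from RefSeq (GRCh38.p14), and 3′UTRs and positions from GENCODE release 29. Alternatives were a pseudocount of 1 or 0.01, a filter at 1 FPKM or none, values rescaled to one total, quantile normalization, a replicate block, eBayes with no trend, each sample left out in turn and, chosen after seeing the data, limma-voom on recovered reads.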

Additional observations from a re-analysis of the deposited data

How the results depend on the processing

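Each of the 8 chemokine differences kept its sign under every alternative run. In every fit except that without the filter, 6 passed as higher and 1 as lower. Without the filter 5 passed as higher, and CXCL8 did not pass. In the main fit, 23.7% of all genes tested passed as higher and 20.9% as lower. The chemokines were selected on this contrast and the fits reuse the same samples, so nothing is read from these counts. The log2 difference of CXCL8 was 0.49 with quantile normalization, against 0.27. CXCL10 ran from 1.46 to 2.31 and CCL5 from 0.02 to 0.31 with 1 sample left out.

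The count of all genes past the fold threshold (117 higher, 87 lower) was 46 and 41 with a pseudocount of 1, and 239 and 174 with limma-voom on recovered reads. With quantile normalization 8 NF-kappaB genes and 1 interferon gene were lower, against 4 and 0. One AU-rich mRNA decay gene was higher in the main comparison, 2 with limma-voom, and 1 to 3 with 1 sample left out, the highest without sh-NC replicate 2. The cause was not tested.

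Same-numbered samples of the 2 groups did not deviate together (correlations of -0.08, 0.07 and 0.07 across genes). These correlations cannot decide whether same-numbered samples were prepared together, which the labels used here do not state. With the replicate number as a block, 2 AU-rich mRNA decay genes were higher, and no other count moved by over 1.5 times. CXCL1 rests on 1 read, and CXCL10 in sh-NC replicate 2 and CCL5 on 122 and 139 to 238 reads.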
